A study of Homo sapiens with 2 samples.

Results

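The 53 mitotic and G2/M genes examined here encode the kinases, cyclins, spindle and kinetochore proteins, motors and condensin subunits that carry a cell through G2 and division. They were given as a list of gene symbols, and each was read from the probe sets that a platform annotation assigns to that symbol alone. All 53 had such a probe set, of 19775 genes that did. The members had 97 such probe sets, and 7 further ones assigned to several genes were left out. Expression was measured in SW620, an established human line started from a colorectal cancer that had spread to a lymph node, grown in RPMI-1640. One culture carried a lentiviral shRNA against SOX2, which encodes a stem cell transcription factor, and the other a lentiviral non-target shRNA, called mock knockdown. Each group held 1 Affymetrix array, so no difference could be tested. The labels give SW620 for both, but whether the arrays hold the same line was not tested, and a difference caused by the SOX2 shRNA cannot be told apart from any other difference between the cultures. The labels give neither the hairpin sequences, nor the time after infection, nor whether cells were pooled or cloned, and 1 label field names a mouse liver that no other label mentions.

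Mitotic genes are transcribed in a late wave of the cell cycle. The cyclin-dependent kinase CDK1, switched on by cyclins A and B, starts mitosis, the Aurora and Polo kinases build the spindle, and the spindle checkpoint holds back the anaphase-promoting complex until every kinetochore is attached. Many of these genes are held silent in resting cells by the DREAM complex and switched on by B-MYB and FOXM1 through a promoter element called the cell cycle genes homology region (CHR), often beside CCAAT boxes bound by NF-Y. In the gut they are expressed in the dividing cells of the crypts and of tumours, and they are commonly read as a sign of proliferation.

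Without control spots there were 54613 probe sets, with medians of 68.1 on the SOX2 knockdown array and 69.0 on the mock array. Values are RMA intensities on a linear scale, and 68.5, the median over both arrays together, served as the floor. The fold of a gene or probe set with 1 value under it is given as a bound. Counts, medians and quartiles over lists and over all genes used the values as they were, also where 1 lay under the floor. The brightest SOX2 probe set read 20.9 on the SOX2 knockdown array and 2077 on the mock array, and since the first value lies under the floor, SOX2 was at least 30.3-fold lower. A second SOX2 probe set read 120.5 under SOX2 knockdown and 333 under mock knockdown. Epithelial markers were present, with EPCAM at 9898 on the SOX2 knockdown array and 8910 on the mock array, and all 12 of the colorectal epithelial list reached the floor on at least 1 array. The summed level of that list was 80152 on the SOX2 knockdown array and 50676 on the mock array, and KRT20, LGALS4 and CDH17 lay under the floor on the mock array only. VIL1 of the same list went the other way, with 867 on the SOX2 knockdown array and 2063 on the mock array. ALB of hepatocytes, PTPRC and CD3E of leukocytes, and COL1A2 and COL3A1 of fibroblasts lay under the floor on both arrays. Of 10 hepatocyte markers 6 reached the floor on at least 1 array, with summed levels of 4902 on the SOX2 knockdown array and 889 on the mock array. Of 7 fibroblast markers 5 did, with sums of 591 on the SOX2 knockdown array and 678 on the mock array. Of 7 leukocyte markers 2 did, with sums of 204 on the SOX2 knockdown array and 2152 on the mock array. SERPINA1 made up most of the hepatocyte sum and LCP1 most of the leukocyte sum on the array where each was higher. The 3′ to 5′ ratio of control probe sets, a sign of RNA integrity, was 1.06 on the SOX2 knockdown array and 1.04 on the mock array for GAPDH. For ACTB it was 1.43 on the SOX2 knockdown array and 1.20 on the mock array. Whether these differences between the cultures play a part in the results below was not tested.

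The mitotic genes were lower on the SOX2 knockdown array as a group, by modest amounts. All 53 reached the floor on both arrays, so no fold is a bound. Of them 47 lay below 0 on the log2 scale of SOX2 knockdown minus mock knockdown, where 50.5% of all 13609 genes reaching the floor did. By at least 2-fold, 9 of 53 were lower, or 17.0%, against 7.29% of all genes, and 0 were higher, against 8.44% of all genes. By at least 1.5-fold, 22 were lower, or 41.5%, against 14.8% of all genes, and 0 were higher, against 15.0%. The median difference was -0.55 over the members and -0.01 over all genes. The central part of the members, between quartiles, ran from -0.79 to -0.29, while for all genes it ran from -0.30 to 0.30. The members' distribution was therefore shifted, with no member as far as 4-fold from equality in either direction. Its width cannot be set beside that of all genes, which include genes with 1 value under the floor while the members do not. RNA was taken from whole cultures, so fewer cells in G2 or mitosis and less of these RNAs per dividing cell cannot be told apart.

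**Figure D1:**
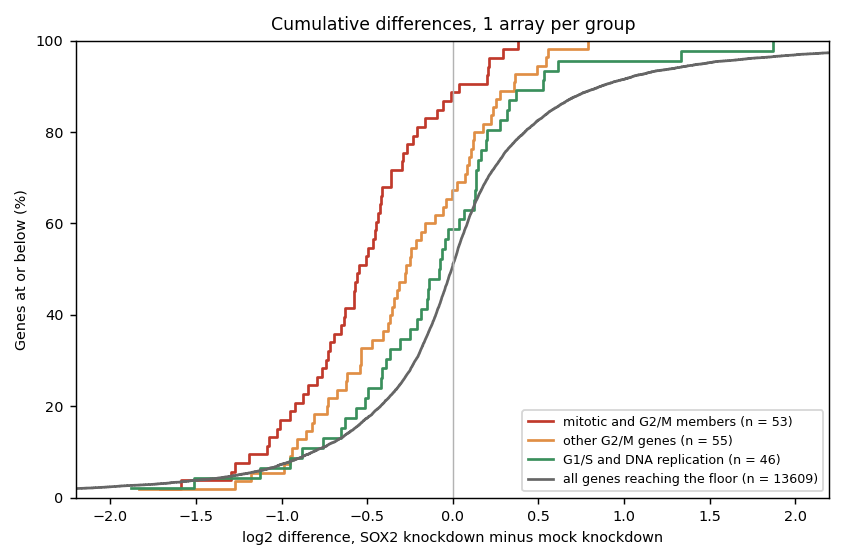
Cumulative share of genes (vertical axis, percent) at or below each log2 difference, SOX2 knockdown minus mock knockdown (horizontal axis, 1 array per group), for the 53 mitotic and G2/M genes, 55 other G2/M genes, 46 G1/S and DNA replication genes and all 13609 genes reaching the floor; genes beyond 2.2 either way lie outside the axis. The line of the 53 genes crosses 0 at 88.7%, against 50.5% for all genes, and ends at 0.38.

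The spread between replicate cultures is unknown, and the probe sets of a gene are the only repeat these arrays hold. Among probe sets of 1 member that reached the floor, the SD of the difference was 0.24 on the log2 scale, against 0.49 over all genes. Of 23 members with several such probe sets, 16 were lower at every one, 3 were higher at every one and 4 were split. Over the probe sets above the floor on both arrays the SD was 0.22, against 0.34 over all genes. The 4 probe sets of CDK1 differed by between -0.73 and -0.69. Every probe set of a gene saw the same RNA on the same array, so this SD is no replicate error.

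The promoters of these genes are shown because most members were lower together and many are known to share a control element. RefSeq promoter windows, from 250 bases before to 50 after a gene's start on GRCh38.p14, were found for 46 of the 53 members, in 58 windows. No window was found for AURKA, FOXM1, BUB3, TTK, UBE2C, TPX2 and RACGAP1. The CHR letters TTTGAA, on either strand, occurred in 37 of 58 member windows, or 63.8%, against 15.2% of all 35116 windows and 10.6% of the 15711 windows of genes reaching the floor. CCAAT, on either strand, occurred in 72.4% of member windows, against 34.6% of all windows. Both stood in 51.7% of member windows, against 5.90% of all windows. The 4 genes printed here had the largest differences among those with TTTGAA, and each sequence runs from 150 bases before the start to 50 after it, 5′ to 3′, with TTTGAA and CCAAT of either strand in capitals. DLGAP5 lies at chr14:55191536-55191735 on the minus strand, KIF14 at chr1:200620702-200620901 on the minus strand, ESPL1 at chr12:53268149-53268348 on the plus strand and CENPF at chr1:214603045-214603244 on the plus strand.
DLGAP5 promoter: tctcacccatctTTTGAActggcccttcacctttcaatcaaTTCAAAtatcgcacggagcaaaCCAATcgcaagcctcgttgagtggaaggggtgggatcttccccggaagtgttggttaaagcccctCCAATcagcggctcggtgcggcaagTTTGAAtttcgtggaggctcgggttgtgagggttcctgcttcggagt
KIF14 promoter: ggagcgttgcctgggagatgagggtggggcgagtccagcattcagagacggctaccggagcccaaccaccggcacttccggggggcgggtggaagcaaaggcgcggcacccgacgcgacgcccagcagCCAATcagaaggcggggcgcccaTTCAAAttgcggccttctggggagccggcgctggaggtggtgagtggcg
ESPL1 promoter: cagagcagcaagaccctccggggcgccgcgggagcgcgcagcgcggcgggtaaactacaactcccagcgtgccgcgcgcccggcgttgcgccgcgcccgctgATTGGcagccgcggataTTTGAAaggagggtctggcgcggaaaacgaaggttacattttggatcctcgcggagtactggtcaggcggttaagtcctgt
CENPF promoter: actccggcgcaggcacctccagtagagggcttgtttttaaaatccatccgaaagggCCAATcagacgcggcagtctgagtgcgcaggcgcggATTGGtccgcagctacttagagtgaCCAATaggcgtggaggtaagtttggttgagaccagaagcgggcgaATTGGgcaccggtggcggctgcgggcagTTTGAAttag

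In these windows the CHR letters nearest the start began 4 bases into the DLGAP5 transcript, 2 into KIF14 and 41 into CENPF, and 31 bases before the start of ESPL1. A window limited to 60 bases before and 50 after the start, chosen after the letters had been located, held TTTGAA in 55.2% of member windows, against 5.03% of all windows. The variant TTTAAA was found in 27.6% of member windows, against 12.2% of all windows. An E2F site written as TTTGGCGC or TTTCCCGC was found in 3.45% of member windows and 2.27% of all windows. The SOX2 site letters CATTGTT were found in 1 member window, of KIF20B, or 1.72%, against 3.33% of all windows. The median difference was -0.55 in the 33 genes with TTTGAA in any window and -0.58 in the 13 without it. Some of those 13 held the variant: TTTGAA or TTTAAA was found in 40 of the 46 genes. That is 87.0%, against 27.9% of all genes with a window. AURKB, which had the largest difference of all, had CCAAT but not TTTGAA in its windows.

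The promoters of CCNB2 and KIF23, chosen after their values were seen because both genes lay above 0, carried the same letters. CCNB2 lies at chr15:59104996-59105195 on the plus strand and KIF23 at chr15:69414199-69414398 on the plus strand, with the same capitals.
CCNB2 promoter: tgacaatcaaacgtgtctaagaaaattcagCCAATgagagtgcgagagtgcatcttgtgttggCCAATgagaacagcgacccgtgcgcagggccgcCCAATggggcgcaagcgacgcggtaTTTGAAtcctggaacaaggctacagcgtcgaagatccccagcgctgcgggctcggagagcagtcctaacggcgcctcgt
KIF23 promoter: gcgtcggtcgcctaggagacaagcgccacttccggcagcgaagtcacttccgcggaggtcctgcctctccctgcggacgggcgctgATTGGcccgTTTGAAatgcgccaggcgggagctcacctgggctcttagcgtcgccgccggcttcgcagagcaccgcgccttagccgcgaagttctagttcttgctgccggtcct

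The CCAAT boxes of CCNB2 began 120, 87 and 54 bases before the start and its TTTGAA 29 bases before it. In KIF23 the TTTGAA began 55 bases before the start, with CCAAT on the other strand beginning at 64. A promoter with these letters was thus found both in genes that were lower on the SOX2 knockdown array and in genes that were not.

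**Figure D2:**
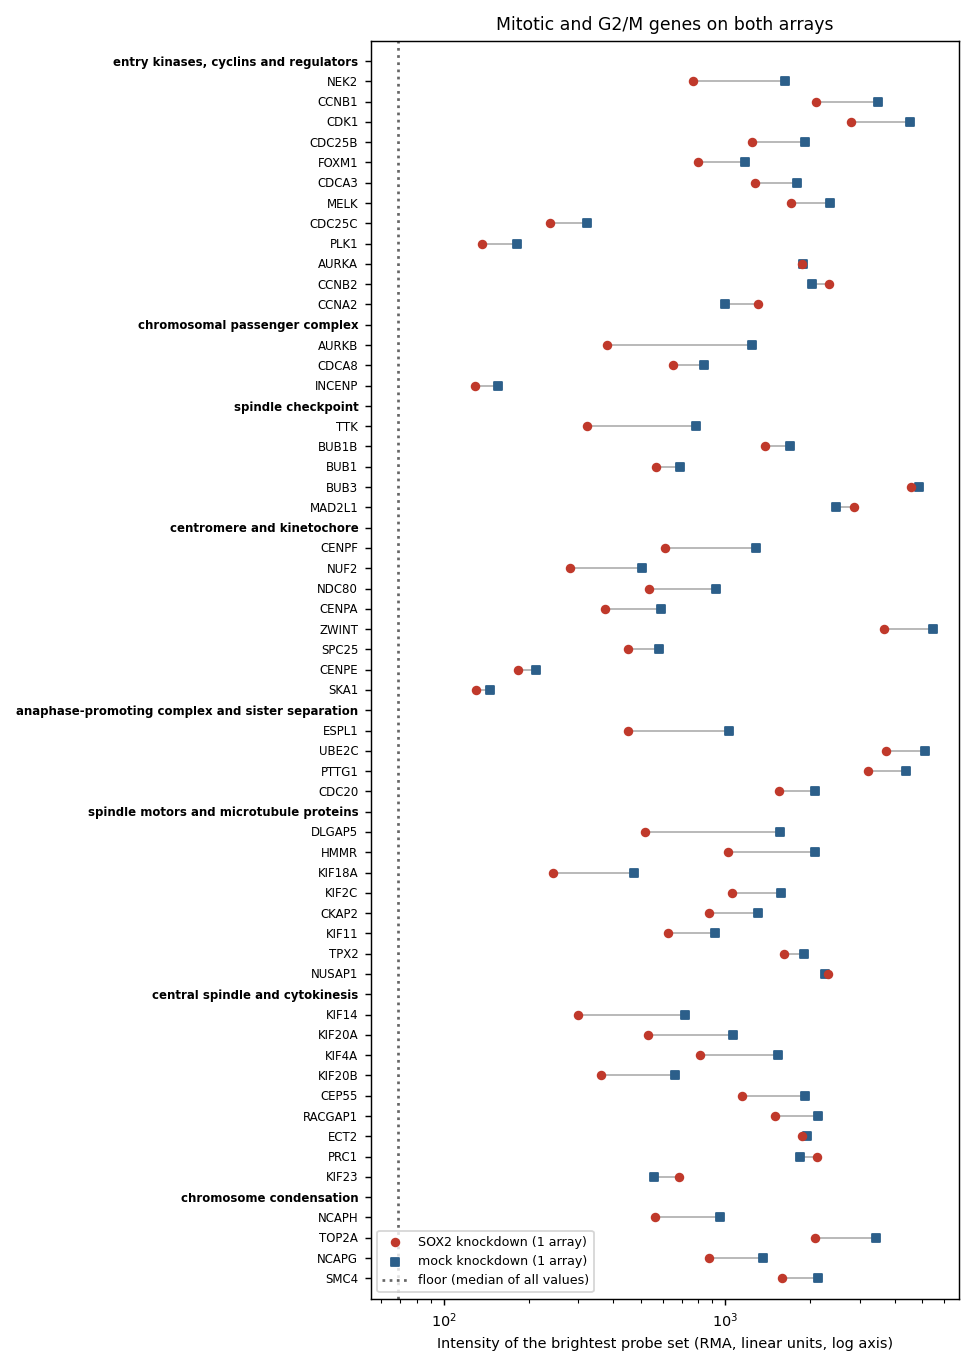
Intensity of the brightest probe set of each of the 53 genes (horizontal log axis, linear RMA units), grouped by role, on the SOX2 knockdown array (red circles) and the mock array (blue squares), with the floor of 68.5 as a dotted line. The red circle lies left of the blue square in 47 genes, and every point lies right of the floor.

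Regulators of mitotic entry were split between lower and near-equal genes. The median of the 12 was -0.48, 10 had values below 0, 4 passed 1.5-fold and 1 of these passed 2-fold. NEK2, a kinase that separates the centrosomes, read 768 on the SOX2 knockdown array and 1630.4 on the mock array, 2.12-fold lower. Its second probe set differed by -1.08, close to the first at -1.09. CDK1 itself read 2802 on the SOX2 knockdown array and 4529.7 on the mock array, 1.62-fold lower. CCNB1, the cyclin B that activates CDK1, read 2105 under SOX2 knockdown and 3491 under mock knockdown, a difference of -0.73, and its other probe set differed by -0.92. CDC25B, a phosphatase that removes the inhibitory phosphate from CDK1, read 1244 under SOX2 knockdown and 1922 under mock knockdown, at -0.63.

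The other cyclins did not follow CCNB1. CCNB2, its close relative, read 2333 on the SOX2 knockdown array and 2028 on the mock array, at 0.20, with a dim further probe set at -0.10. CCNA2, cyclin A of S phase and G2, had the highest difference of all 53 genes, 0.38, with 1302 on the SOX2 knockdown array and 999 on the mock array, and 0.24 at its other probe set. AURKA, the Aurora kinase of the centrosome, read 1874 under SOX2 knockdown and 1886 under mock knockdown, and its 3 probe sets ran from -0.01 to 0.13. The remaining entry genes differed by -0.56 for FOXM1, the transcription factor of this gene programme, -0.50 for CDCA3, -0.47 for MELK, -0.44 for the phosphatase CDC25C and -0.42 for the Polo kinase PLK1. None of these 5 reached 1.5-fold, and PLK1 was dim, at 136 on the SOX2 knockdown array and 182 on the mock array.

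The chromosomal passenger complex, which corrects wrong attachments of microtubules, held the lowest gene. AURKB, its Aurora kinase, read 379.7 on the SOX2 knockdown array and 1245 on the mock array, 3.28-fold lower. The second AURKB probe set was dim, with 99.7 on the SOX2 knockdown array and 127 on the mock array, and differed by only -0.34, so the size of the AURKB difference depended on the probe set. Its partners differed less: CDCA8, or borealin, by -0.36 and the scaffold INCENP by -0.27.

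Of 5 spindle checkpoint genes 1 was far lower and 4 were within 1.5-fold. TTK, the kinase that recruits checkpoint proteins to the kinetochore and is also called MPS1, read 321 on the SOX2 knockdown array and 788 on the mock array, 2.45-fold lower at its only probe set. BUB1B differed by -0.30 and the kinase BUB1 by -0.29. BUB3, which carries both to the kinetochore, read 4581 under SOX2 knockdown and 4884 under mock knockdown, with 5 probe sets from -0.32 to 0.04. MAD2L1, which inhibits CDC20, read 2867 on the SOX2 knockdown array and 2473 on the mock array, and its 3 probe sets all lay above 0, from 0.21 to 0.36.

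All 8 centromere and kinetochore genes had negative values, with a median of -0.62, and 4 passed 1.5-fold. CENPF, a large coiled-coil protein of the outer kinetochore, read 611 on the SOX2 knockdown array and 1286 on the mock array, at -1.07. A second CENPF probe set read 67.3 under SOX2 knockdown and 263 under mock knockdown, the first just under the floor, so the difference is at or below -1.94. NUF2 and NDC80 are partners in the complex that grips microtubules, and were lower by like amounts. NUF2 read 280.0 under SOX2 knockdown and 504 under mock knockdown, at -0.85. NDC80 read 537 under SOX2 knockdown and 930.1 under mock knockdown, at -0.79. SPC25 of the same complex differed by -0.36. CENPA, the histone variant that marks the centromere, read 374 under SOX2 knockdown and 589 under mock knockdown, at -0.66. ZWINT differed by -0.58, the motor CENPE by -0.21 and SKA1 by -0.16. SKA1 was dim, at 130.1 on the SOX2 knockdown array and 145 on the mock array.

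Genes of the anaphase-promoting complex and of sister separation all lay below 0, and 1 of 4 was at least 1.5-fold lower. ESPL1, or separase, which cuts cohesin at anaphase, read 450.1 on the SOX2 knockdown array and 1028 on the mock array, 2.28-fold lower, and its second probe set differed by -1.30. PTTG1, or securin, which inhibits separase, differed by -0.45, at a probe set that can match close copies of the gene. UBE2C, the ubiquitin-conjugating enzyme of the complex, differed by -0.46 and its activator CDC20 by -0.42. The 3 lay close together while separase stood apart from them.

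The 8 spindle motors and microtubule proteins had a median of -0.58, with 7 negative values and 3 past 1.5-fold. DLGAP5, which stabilises kinetochore fibres, read 520.2 on the SOX2 knockdown array and 1565 on the mock array, 3.01-fold lower at its only probe set. HMMR, a spindle protein that is also a hyaluronan receptor, read 1023 under SOX2 knockdown and 2088 under mock knockdown, at -1.03, and its other probe set differed by -0.93. KIF18A, which shortens kinetochore microtubules, read 245 under SOX2 knockdown and 474 under mock knockdown, at -0.95. This value lay just short of 2-fold, and that of the cytokinesis motor KIF20A, -1.01, just past it. KIF2C differed by -0.58, CKAP2 by -0.57, KIF11, the motor that pushes spindle poles apart, by -0.55 and TPX2, the activator of AURKA, by -0.23. NUSAP1 lay above 0 at both probe sets, at 0.04 and 0.25.

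The 9 central spindle and cytokinesis genes ran from -1.27 to 0.29 with a median of -0.74. Of them 7 had negative values and 5 passed 1.5-fold. KIF14, a motor of the midbody, read 299 on the SOX2 knockdown array and 722 on the mock array, 2.42-fold lower, and its second probe set differed by -1.29. Further motors of the midzone and midbody were lower too. KIF20A read 531 under SOX2 knockdown and 1068 under mock knockdown, at -1.01. KIF4A read 811 under SOX2 knockdown and 1540.5 under mock knockdown, at -0.92, on a probe set that may also match its close copy KIF4B. KIF20B read 362 under SOX2 knockdown and 664 under mock knockdown, at -0.87. CEP55, which recruits the machinery that severs the midbody, read 1148 under SOX2 knockdown and 1917 under mock knockdown, at -0.74. RACGAP1 and KIF23 together form centralspindlin, and they went opposite ways. RACGAP1 differed by -0.51, whereas KIF23 read 682 on the SOX2 knockdown array and 556 on the mock array, at 0.29. PRC1, which bundles midzone microtubules, differed by 0.20 at its only probe set. ECT2, the exchange factor that starts furrowing, read 1871 under SOX2 knockdown and 1949 under mock knockdown, and its probe sets differed by -0.06 and 0.02.

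The 9 kinesins among the 53 genes, CENPE and those with a KIF symbol, were already counted in the role groups above and were not a planned group. Their median was -0.87, with 8 below 0, against 50.5% of all genes. Of them 5 were at least 1.5-fold lower, against 14.8% of all genes, and 2 at least 2-fold lower, against 7.29%. Kinesins outside the 53 genes, from the list of other G2/M genes below, were less uniform. They stood at -1.18 for KIF15, -0.36 for KIF22, -0.34 for KIF18B and 0.22 for KIFC1. The 4 condensation genes all had negative values, and 3 passed 1.5-fold. TOP2A, the topoisomerase that untangles sister DNA, read 2078 on the SOX2 knockdown array and 3420.3 on the mock array, at -0.72, and its other probe set at or above the floor differed by -0.44. NCAPH, a condensin subunit, read 564 under SOX2 knockdown and 957 under mock knockdown, at -0.76. NCAPG, its partner in the same condensin, read 875 under SOX2 knockdown and 1361 under mock knockdown, at -0.64. SMC4, the ATPase shared by both condensins, differed by -0.43.

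**Figure D3:**
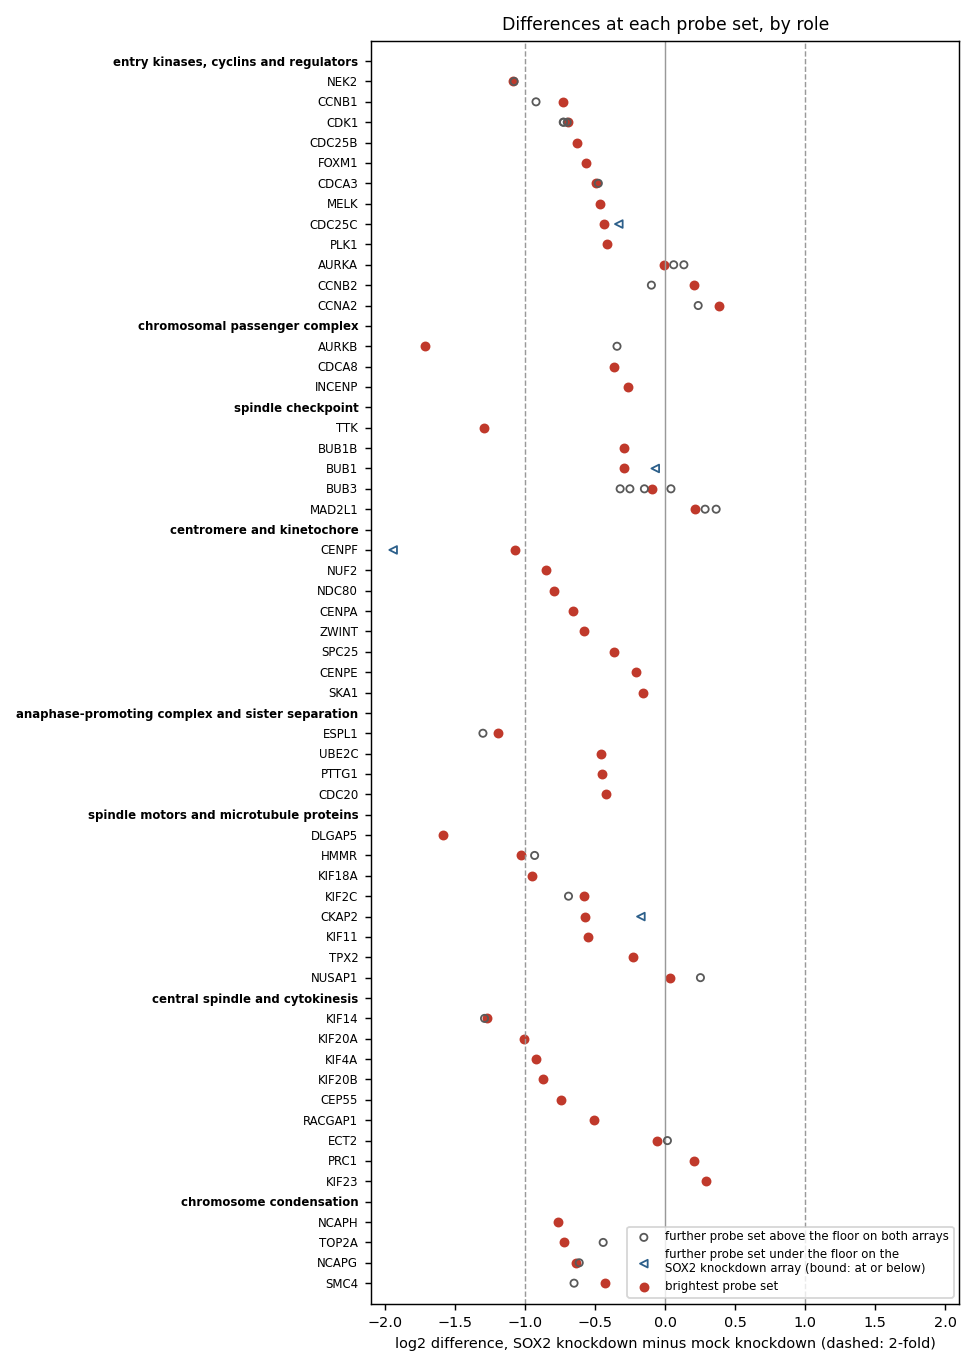
Log2 difference, SOX2 knockdown minus mock knockdown (horizontal axis), at the brightest probe set of each gene (filled) and at further probe sets above the floor on both arrays (open), by role; triangles are upper bounds at the 4 probe sets under the floor on the SOX2 knockdown array, and dashed lines mark 2-fold. The brightest AURKB probe set lies at -1.71 and its other at -0.34, while the 4 of CDK1 lie from -0.73 to -0.69.

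The 6 members above 0 all lie on chromosomes 4 and 15, a grouping made after the values were seen. CCNA2 and MAD2L1 are on chromosome 4, and KIF23, PRC1, CCNB2 and NUSAP1 on chromosome 15. Since these chromosomes were picked by the members above 0, the 44 members elsewhere lay below 0 at their brightest probe set by construction. Their median was -0.58. Among them AURKA was close to 0, at -0.01, with further probe sets at 0.06 and 0.13. ECT2 at -0.06 and BUB3 at -0.09 also had a further probe set above 0. Each member was set beside the median difference of up to 20 measured genes on either side in chromosomal order, members left out. Those neighbours were higher on the SOX2 knockdown array around CCNA2 and MAD2L1, at 0.75 for both, which share 36 of their 39 neighbours. KIF23, PRC1, CCNB2 and NUSAP1 shared no neighbours with one another. Their neighbours stood at 0.37 around KIF23, 0.25 around PRC1, 0.19 around CCNB2 and 0.18 around NUSAP1. With 10 and 40 genes on either side the value was 0.49 and 0.18 around KIF23, and 0.080 and 0.32 around NUSAP1. Over whole chromosomes the median was 0.22 for 432 genes of chromosome 15 and 0.11 for 436 genes of chromosome 4. CENPE on chromosome 4 and BUB1B on chromosome 15, at -0.21 and -0.30, had neighbours at 0.68 and 0.47. NCAPG, also on chromosome 4, had neighbours at 0.07 and a difference of -0.64.

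Less the median of its neighbours, the difference was below 0 in 52 of 53 members, the exception being CCNB2 at 0.02. By the same measure 50.1% of the 13579 placed genes lay below 0. The members' median changed little, to -0.49, and 6 of them were at least 2-fold lower, or 11.3%, against 6.12% of placed genes. Those 6 were AURKB, KIF14, TTK, ESPL1, DLGAP5 and HMMR, and with 40 genes on either side KIF20A joined them. CCNA2 stood at -0.37 and MAD2L1 at -0.54 once their neighbours were taken off, and CENPE at -0.89. With 10 genes on either side 51 members lay below 0, all but ZWINT at 0.15 and BUB3 at 0.13, and with 40 again 51, all but KIF23 at 0.11 and PRC1 at 0.003, so which genes remained above 0 depended on the window. Genes with lower neighbours came nearer to 0, by amounts that also depended on it. CDK1 was left at -0.08, -0.09 and -0.49 with 10, 20 and 40 genes on either side. ZWINT stood at 0.15, -0.19 and -0.38 and CKAP2 at -0.36, -0.25 and -0.48 with the same windows. Across the 53 genes the difference and that of the neighbours had a Pearson's r of 0.58, and across all placed genes 0.23. The r was 0.55 in the 55 other G2/M genes and 0.47 in the 46 G1/S and DNA replication genes. In 14 anaphase-promoting complex genes it was 0.30, and in 19 DREAM, B-MYB and E2F genes 0.08. Within the members, r was 0.32 in the 44 on chromosomes where no member lay above 0, and 0.35 in the remaining 9. This split was made by the same differences that enter r. These points share the same pair of arrays, and nearby genes share neighbours, so the values are a description. Which feature of the cultures the chromosomal pattern follows, a difference between the lines or clones grown included, was not tested.

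**Figure D4:**
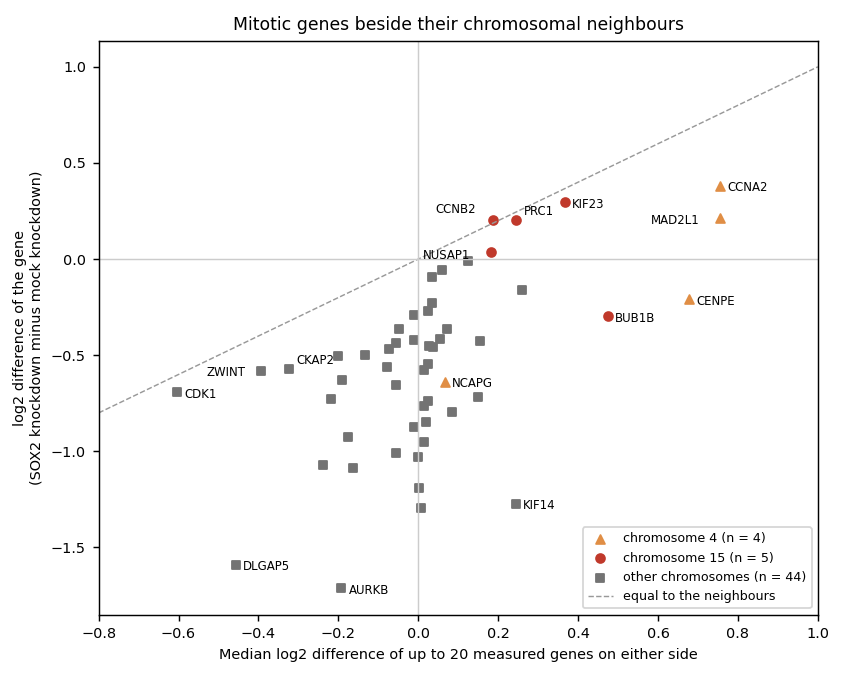
Log2 difference of each of the 53 genes (vertical axis, SOX2 knockdown minus mock knockdown) against the median difference of up to 20 measured genes on either side (horizontal axis), with chromosome 4 as triangles, chromosome 15 as circles and the dashed line marking equality. With this window only CCNB2 lies above the dashed line, by 0.02, and all 6 genes above 0 are on chromosome 4 or 15.

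Other genes of the division machinery, from a list of 56 of which 55 reached the floor, shifted less. The members and this list were chosen with earlier results of these data known, which limits a comparison between them. In this list 37 differences were negative, or 67.3%, against 50.5% of all genes, and the median was -0.27. By at least 2-fold 3 were lower, or 5.45%, a smaller share than the 7.29% of all genes, and none was higher, against 8.44%. By at least 1.5-fold 15 were lower, or 27.3%, against 14.8% of all genes. PBK, a mitotic kinase, read 490.3 on the SOX2 knockdown array and 1751 on the mock array, at -1.84, and CDCA2, which brings a phosphatase to anaphase chromatin, differed by -1.27. Both lie on chromosome 8 beside neighbours at -0.68. Less those neighbours PBK stood at -1.15 and CDCA2 at -0.59, and the median of the list, less neighbours, was -0.23. The only one at least 1.5-fold higher was SKA2 at 0.79. MKI67, the gene of the proliferation marker Ki-67, read 819 under SOX2 knockdown and 843 under mock knockdown, at -0.04, and BIRC5, the survivin subunit of the passenger complex, read 1105 under SOX2 knockdown and 1606 under mock knockdown, at -0.54. MKI67 and BIRC5 were picked after their values were seen, as were PLK4, TACC3 and KNL1 below. In this list the genes above 0 were not confined to chromosomes 4 and 15, but their share was larger there. Above 0 lay 5 of its 7 genes on those chromosomes and 13 of its 48 genes elsewhere. PLK4 on chromosome 4 had a difference of 0.54 beside neighbours at 0.90, and TACC3 on the same chromosome 0.49 beside neighbours at 0.13. SKA2, on chromosome 17, had neighbours at -0.14. KNL1, a kinetochore scaffold on chromosome 15, differed by -0.81 beside neighbours at 0.40.

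Lists of the core machinery around these genes were less uniform. Of 14 constitutive subunits and activators of the anaphase-promoting complex, 10 were negative and 1 was at least 2-fold lower, or 7.14%, against 7.29% of all genes. This was CDC23 at -1.24, with ANAPC15 at -0.88 next. The median of -0.38 was close to 0, at -0.05, when genes were read at the probe set that differed least, where that one reached the floor. By its rule this choice favours values near 0, so it cannot show that the list was unshifted. Of 10 cohesin genes, 1 was at least 2-fold higher, against 8.44% of all genes, PDS5B at 1.16, followed by RAD21 at 0.87, while STAG2 and SMC3 differed by -0.79 and -0.63. The regulators that switch these promoters had a median of 0.03 over 19 genes, with 2 at least 2-fold higher, against 8.44% of all genes, and none lower. E2F8, an E2F repressor, read 649 on the SOX2 knockdown array and 222 on the mock array, at 1.55, and TFDP1, the partner of the E2F factors, differed by 1.19. B-MYB, encoded by MYBL2, read 781 under SOX2 knockdown and 751 under mock knockdown, at 0.05, and was picked after its values were seen. Among 10 genes of the G2 brake 3 were at least 2-fold lower, or 30.0%, against 7.29% of all genes, and none was higher, against 8.44%. The lower ones were GADD45A at -1.62, GADD45B at -1.55 and, named to complete this count after its value was seen, ATM at -1.17. CDKN1A and SFN stood at 0.93 and 0.62.

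Genes of G1/S and DNA replication, the earlier wave of the cycle, had a median of -0.08 over 46 measured genes, with 3 at least 2-fold lower, or 6.52%, against 7.29% of all genes, and 2 higher, or 4.35%, against 8.44%. POLA1 and PRIM1, subunits of polymerase alpha-primase, differed by -1.88 and -1.51, against CCNE1 at 1.87 and CCNE2 at 1.33. The share at least 1.5-fold lower was 41.5% in the 53 mitotic genes, 17.4% in that list and 14.8% in all genes. With 1 array per group that gap has no replicate check.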

How the data were processed

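Per the labels' protocols, Trizol RNA was made into biotinylated cRNA with an Affymetrix 3′ IVT kit, and 1 array was run for each culture. The authors deposited intensity values that the submitters' processing notes credit to RMA. The version and settings, and how values came back to a linear scale, are among the points not given in the sources used here. Because RMA equalises the distributions of arrays, a global change in RNA content is invisible.

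Log2 of the intensity was taken with no pseudocount or further normalization. Each gene was read at its brightest probe set by mean log2, and a gene entered when it reached the floor on either array. No test was run, since each group held 1 array. Genes were counted at 2-fold and 1.5-fold, and lists were set beside all genes. The members and lists were chosen with earlier results of these data known. All members are given by their difference. Intensities on both arrays were chosen for SOX2, members at least 1.5-fold different, the 2 highest and 2 lowest and members with probe sets going opposite ways, and after values were seen for MAD2L1, PLK1 and SKA1. Other lists gave up to 2 genes per direction with at least 1.5-fold difference, and, picked after their values were seen, MKI67, BIRC5, MYBL2, PLK4, TACC3, KNL1, ATM and the markers. Gene order came from a RefSeq table of GRCh38.p14, from which no coordinates were used other than those of promoters. Promoters came from RefSeq and letters were searched on both strands. The counting and neighbour steps were tested on simulated data. Alternatives were other normalizations, floors, probe set choices, a pseudocount of 32, other limits and windows of 10 and 40 genes beside the 20 used for neighbours. Python 3.11.15, numpy 2.4.6, pandas 2.3.3, statsmodels 0.14.6 and matplotlib 3.10.9 were used.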

Additional observations from a re-analysis of the deposited data

How the results depend on the processing

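The median over the 53 genes stayed between -0.58 and -0.49 in 12 alternative settings, one of which, taking off chromosomal neighbours, was added after the data were seen. With a limit of 1.5-fold 22 genes were lower and with 3-fold 2, AURKB and DLGAP5. None was higher at either limit. Leaving out probe sets with suffix _s_at or _x_at left 36 of the 53 genes, with 31 below 0. The count at least 2-fold lower was 6 when each gene was read at its least different probe set, over 46 genes, and 6 less the neighbours. The AURKB difference was -1.03 as the mean of its probe sets and -0.34 at the lesser one, and KIF20B stood at -0.24 as the mean of its probe sets, of which only 1 reaches the floor. The leukocyte list, with 2 genes at the floor, had a median of -1.80, and of 0.041 with no floor. In place of replicates, a value was taken as moved when it shifted by over 0.24, the SD between probe sets of a member. No paired analysis was possible because each group held 1 array. The number of arrays limits every value here, and dim genes such as PLK1, INCENP and SKA1 lie nearest the background.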
